A study of Mus musculus with 5 samples.

Results

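Intronic peaks of RNA polymerase II (Pol II) in long genes were examined in regulatory T (Treg) cells with and without Setd2. A peak was included when it lay on chromosomes 1 to 19, was shorter than 5 kb, and had its midpoint inside a protein-coding gene of at least 100 kb, in no annotated exon, more than 3 kb from the start site of any basic transcript and more than 1 kb from the 3′ end of the gene. Of 56615 peaks, 8280 (14.6%) met this rule, in 887 of the 2372 autosomal protein-coding genes of that length (GENCODE vM21, GRCm38, the assembly called mm10). These host genes had a median length of 156 kb. The rule read positions and no counts.

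Pol II was mapped with CUT&Tag, in which an antibody on chromatin guides a transposase that cuts and tags the DNA nearby. The nuclei were those of CD3+CD4+Foxp3-YFP+ cells from the spleens of C57BL/6 mice, aged 8 weeks and of both sexes pooled. All mice had received complexes of IL-2 (1 µg) with an antibody to it (5 µg), known as IL-2c, on 3 days in a row and were killed 48 h after that. There were 2 control libraries (Ctrl, Foxp3CreSetd2flox/+) and 2 knockout libraries (KO, Foxp3CreSetd2flox/flox), each of 80000 nuclei, so Ctrl mice also carried the Cre and 1 floxed allele. The Cre is expressed from Foxp3 and deletes Setd2 in Treg cells. Cells of 2 mice were pooled before sorting, and the sources do not settle whether the libraries of each genotype share 1 pool, so p-values measure the spread between these libraries, which may be technical. An IgG library is not analysed here.

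Setd2 is the methyltransferase that travels with elongating Pol II and trimethylates lysine 36 of histone H3 (H3K36me3) along the bodies of transcribed genes, with more of the mark towards the 3′ end. Long genes hold most of their length in introns, which Pol II must cross before a transcript is finished. Introns also carry enhancers, at which Pol II is often found. Reads of CUT&Tag have no strand, so a peak in an intron may belong to transcription of the host gene, of a gene inside that intron, or of an enhancer.

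Total counts in peaks ranged from 4489646 in KO 2 to 13351007 in KO 1, and the libraries numbered 1 were the deeper in both groups. The median member peak had 77 and 41 reads in the Ctrl libraries and 92 and 34 in those of KO. All 10 markers examined for Treg cells had a peak, with a summed normalized count between 37340 and 44675. Of these, Cd4, Cd3e and Trac are not particular to Treg cells. None of 10 markers of CD8 and NK cells had a peak, and neither had Pax5, Ms4a1, Lyz2, Itgam or Hbb-bs. Peaks were present for 4 of 10 B cell markers (summed normalized counts of 364 to 415), 5 of 10 myeloid markers and 2 of 10 erythroid markers (221 to 254). The myeloid sum was 1810 and 1950 in Ctrl and 1649 and 1579 in KO, so these groups did not overlap. The groups overlapped in the B cell and erythroid sums. The part of such cells in the results was not tested. The 9 peaks of Setd2 itself, a gene of 86.0 kb that holds no member, summed to 525, 513, 458 and 560 normalized counts in Ctrl 1, Ctrl 2, KO 1 and KO 2, and since the floxed exons are not given in the sources used here they check no label.

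The 300 bases around the midpoint of 3 member peaks are given first, since these were among the 2 peaks higher and the 2 lower in KO with the lowest DESeq2 p-value at a mean normalized count of at least 20, among peaks whose groups do not overlap, 1 peak for each host gene. They are written on the plus strand of GRCm38 (RefSeq), with capitals where a searched motif matched on either strand. The motifs stand for families of factors active in T cells. RUNX factors were searched as TGTGGT and ETS factors as AGGAAGT. For AP-1 the letters were TGANTCA, while GATA factors were given by AGATAA. The STAT family was given by TTCNNNGAA, and a base could belong to more than 1 match.

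Tg/Sla, chr15:66789712-66790011: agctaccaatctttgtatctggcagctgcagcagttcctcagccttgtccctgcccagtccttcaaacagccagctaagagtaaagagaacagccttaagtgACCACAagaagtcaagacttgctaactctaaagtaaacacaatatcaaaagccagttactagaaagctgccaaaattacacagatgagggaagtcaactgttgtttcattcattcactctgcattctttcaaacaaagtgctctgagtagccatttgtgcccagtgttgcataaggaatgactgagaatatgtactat

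Fancc, chr13:63328300-63328599: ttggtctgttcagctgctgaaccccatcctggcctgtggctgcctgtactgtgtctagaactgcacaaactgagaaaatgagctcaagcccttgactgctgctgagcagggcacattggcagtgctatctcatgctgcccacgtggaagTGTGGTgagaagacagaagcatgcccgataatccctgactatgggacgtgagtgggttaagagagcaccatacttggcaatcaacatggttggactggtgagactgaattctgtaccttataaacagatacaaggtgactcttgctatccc

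Tbck, chr3:132791209-132791508: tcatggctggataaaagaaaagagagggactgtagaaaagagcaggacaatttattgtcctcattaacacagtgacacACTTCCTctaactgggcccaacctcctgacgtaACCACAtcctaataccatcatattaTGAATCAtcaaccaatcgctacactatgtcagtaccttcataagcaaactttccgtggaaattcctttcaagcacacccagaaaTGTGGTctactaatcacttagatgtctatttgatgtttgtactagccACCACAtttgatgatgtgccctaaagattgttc

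Of these, 1 lies in intron 41 of Tg and also within Sla, another in intron 10 of Fancc and the other in intron 23 of Tbck. Each of these windows but that of Tbck held 1 match, to the RUNX letters, and the Tbck window held 5, with 3 of them to RUNX. Over all members, 27.3% of windows held TGTGGT against 23.9% of windows over all 56615 peaks. The shares were 10.7% against 9.32% for AGGAAGT, 10.3% against 8.61% for TGANTCA, 12.6% against 10.1% for AGATAA and 8.18% against 6.97% for TTCNNNGAA. Intronic peaks of genes under 100 kb held the RUNX letters in 26.6% and intergenic peaks in 28.0%, so member windows were like other peaks away from promoters in this respect. A match is a match of letters only.

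Member peaks were between 222 and 4988 bp long with a median of 514 bp, against 570 bp over all peaks. The bases around their midpoints were 49.0% G or C in the median, against 54.3% at promoter peaks and 49.7% in introns of genes under 100 kb. The median distance to the nearest start site was 19.7 kb. The rule tested only the midpoint, and 824 members (9.95%) touched an annotated exon with part of their length. A further limit of position is overlap, since 521 members (6.29%) lay inside more than 1 protein-coding gene.

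Members were spread unevenly over genes. Of the 887 host genes, 215 held a single member and 264 held 10 or more, with a median of 4. Dock2, the activator of Rac in lymphocytes, held 141, Foxp1, a forkhead transcription factor, 101, Inpp4b, a phosphoinositide phosphatase, 87, Fyn, a Src family kinase of T cell receptor (TCR) signalling, 79, and Akap13, an anchoring protein for protein kinase A, 73. The largest number, 203, belonged to Gm20388, a gene model of 4435 kb on chromosome 8 that runs across many other genes, and 164 of its members lay in another protein-coding gene. Per length, Fyn carried 40.2 members per 100 kb, Prkch, protein kinase C eta, 32.6, Dock2 25.3, Foxp1 16.9 and Inpp4b 11.1. A promoter peak, within 3 kb of a start site of the gene, was present for 692 host genes and absent for 195, which held 660 members.

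Along the gene, members were densest at both ends. Gene length was cut into 4 equal sections, numbered 1 to 4 from 5′ to 3′, which held 2156, 1767, 1876 and 2481 members. In 10 equal bins, numbered likewise, there were 945 members in bin 1, 647 in bin 4 and 1070 in bin 10. First introns held 2333 members (28.2%), among them 67.9% of members of section 1 and 2.74% of those of section 4.

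The share of member counts in each section was compared to ask whether Pol II was distributed differently along long genes in KO. Of member counts, section 1 took 28.4% and 27.5% in the Ctrl libraries and 27.5% and 26.5% in those of KO. Section 4 took 27.4%, 28.7%, 28.2% and 29.6% in the same order. KO 2 was thus the lowest in section 1 and the highest in section 4, Ctrl 1 was the reverse, and Ctrl 2 and KO 1 lay between them. The 95% Wilson intervals of these shares reached at most 0.132 percentage points to either side. They hold counting error alone and leave out the spread between libraries.

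In bulk libraries such as these, a change in the mix of cells and a change within each cell cannot be told apart. The mean difference, KO minus Ctrl, was -0.939 percentage points in section 1 (Ctrl 28.0% ± 0.653, KO 27.0% ± 0.726, SD, n = 2 each) and 0.861 in section 4 (28.1% ± 0.953 against 28.9% ± 0.964, SD, n = 2 each). In the exact two-sided permutation test over libraries, in which 2 against 2 cannot go below 0.333, both had p = 0.667 (n = 2 each). The groups overlapped, since KO 1 lay above Ctrl 2 in section 1 and below it in section 4, and a test of this size says little about differences as small as these. Sections 2 and 3 differed by -0.0053 and 0.083 points (p = 1.00 and 0.333, exact permutation test, n = 2 each). Set against the Ctrl library of its own number, KO differed by -0.887 and -0.990 points in section 1 and 0.853 and 0.868 in section 4. The shallower libraries, numbered 2, had the higher share in section 4 in both groups, and the part of depth in these values was not tested. With all libraries thinned to the smallest total, the section 4 difference was 0.953 points. Thinning draws from all peaks of a library at the same rate. It leaves the shares of that library unchanged but for sampling, so this value does not show the part of depth.

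**Figure D1:**
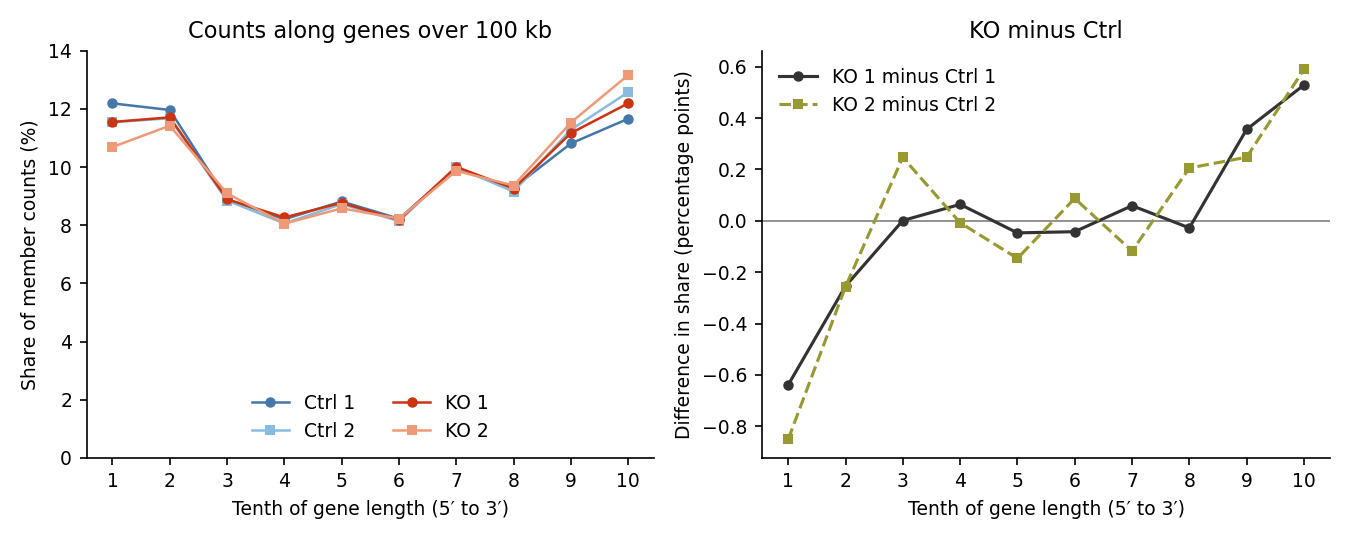
Share of member counts (%) by bin of gene length, 10 equal bins from 5′ to 3′, in each library (left) and the difference between libraries of the same number in percentage points (right). Shares were higher in bins 1, 2, 9 and 10 than in bins 3 to 8, and both differences were lowest in bin 1 (-0.64 and -0.85 points) and highest in bin 10 (0.53 and 0.59).

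In bins, the difference was concentrated at the ends of the gene. Bin 1 took 12.2%, 11.5%, 11.6% and 10.7% of member counts in Ctrl 1, Ctrl 2, KO 1 and KO 2, and bin 10 took 11.7%, 12.6%, 12.2% and 13.2%. From bin 3 to bin 8 the mean difference stayed between -0.10 and 0.12 points. As 1 value per library, the log2 ratio of counts in section 4 to section 1 was -0.054, 0.063, 0.036 and 0.16, a difference of 0.093 (p = 0.667, exact permutation test, n = 2 each). This value rested on the mix of libraries, being 0.034 without Ctrl 1 and 0.032 without KO 2, but 0.15 when either Ctrl 2 or KO 1 was left out.

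The ratio was also compared in shorter genes. In the 12479 intronic peaks of genes under 100 kb, selected in the same way, it was 0.11 (Ctrl -0.40 and -0.19, KO -0.29 and -0.07; 0.11 and 0.12 between libraries of the same number; p = 0.667, exact permutation test, n = 2 each), against 0.093 in members. Over 10 kb from start sites it was 0.16 in these shorter genes and 0.078 in members, and the difference between the sets was not tested. In members it was 0.13, 0.064 and 0.067 in members of low, middle and high G and C content (p = 0.333, 0.667 and 0.667, exact permutation test, n = 2 each), 0.089 in host genes with a promoter peak, 0.092 in those without, and 0.084 in the 7456 members that touched no exon.

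In the fit of single peaks the sections also ran from lower to higher. Ctrl and KO were set against each other by the Wald test of DESeq2 on all 56615 peaks, and a log2 fold change is KO over Ctrl. The median log2 fold change was -0.05, -0.01, -0.02 and 0.05 in sections 1 to 4, against -0.01 over all members and -0.01 over all peaks. In introns of genes under 100 kb the medians were -0.06, 0.01, 0.03 and 0.05. First introns had a median of -0.05 and later introns 0.01. Leaving out single libraries moved these medians. Without KO 2 the order of the sections changed, with medians of -0.04, -0.02, -0.06 and -0.03 (-0.04 over all members).

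No member passed an adjusted p-value of 0.05 in DESeq2, where the lowest was 1.00, and none of all 56615 peaks did (0%, lowest 0.248). At an unadjusted p under 0.05, 57 members (0.688%) were higher and 56 (0.676%) lower in KO, against 0.862% and 0.664% of all peaks. The share of members was thus below that of all peaks for higher and close to it for lower. Both KO libraries exceeded both Ctrl libraries in 15.4% of members and lay below both in 15.8%, against 16.2% and 16.1% of all peaks. edgeR, whose quasi-likelihood test was run beside DESeq2, called 2 members at an adjusted p under 0.05 (0.0477% of all peaks) and 243 at the unadjusted threshold, 113 higher (1.36%) and 130 lower (1.57%), where 3.63% of all peaks passed in either direction.

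The 57 and 56 peaks were not shared evenly by the sections. In section 1, 11 (0.510%) were higher and 21 (0.974%) lower, and in section 2 9 (0.509%) and 7 (0.396%). Section 3 had 10 (0.533%) and 15 (0.800%), and section 4 had 27 (1.09%) and 13 (0.524%). Over all peaks the shares were 0.862% higher and 0.664% lower. Introns of genes under 100 kb had 1.13% of peaks higher and 0.665% lower. The split of members by section was not kept in every fit that left out a single library. As such fits leave 1 library in a group, their counts are not given. Without Ctrl 1, the median log2 fold changes of sections 1 to 4 were -0.01, 0.02, 0.01 and 0.02.

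**Figure D2:**
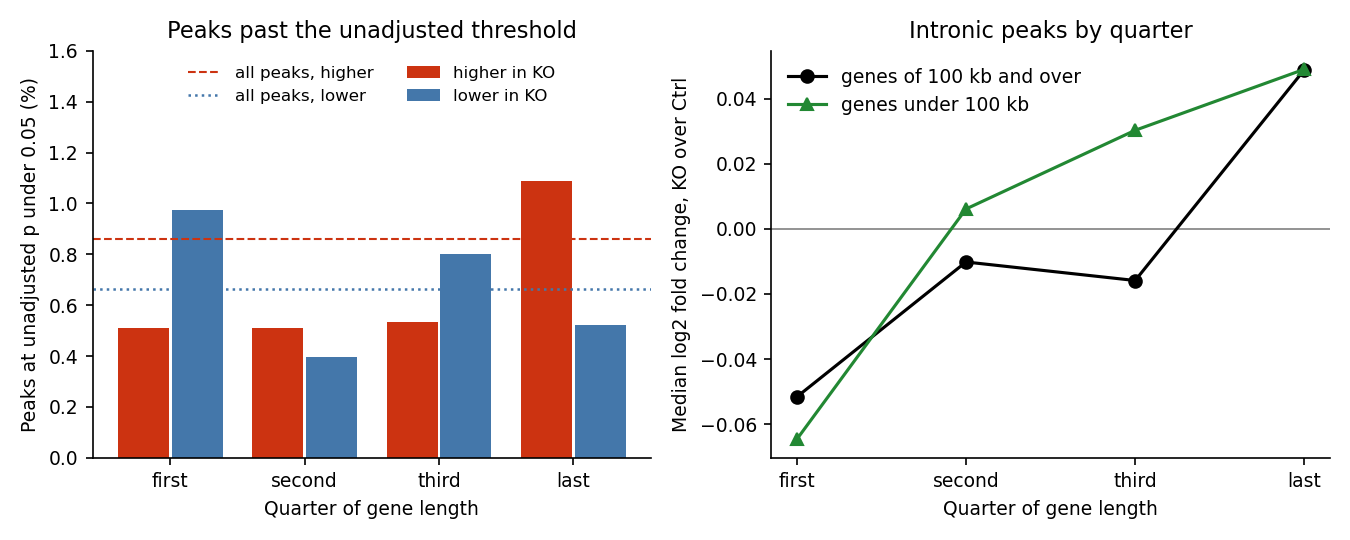
Left, percent of member peaks at an unadjusted DESeq2 p under 0.05 by section of gene length, higher (red) or lower (blue) in KO, with dashed and dotted lines for all 56615 peaks. Right, median log2 fold change by section in members and in intronic peaks of genes under 100 kb; both run from negative in section 1 to 0.05 in section 4.

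The level of intronic Pol II as a whole differed little. Members took 9.64% and 10.1% of all counts in the Ctrl libraries and 9.77% and 10.3% in those of KO, and the groups overlapped (difference 0.14 points, p = 0.667, exact permutation test, n = 2 each). Relative to the promoter peaks of the same host genes, the log2 ratio of counts was 1.32, 1.52, 1.35 and 1.54, with a difference of 0.026 (p = 0.667, exact permutation test, n = 2 each). In both measures the libraries numbered 2 were the higher of their group. The median shift of members against all peaks, which weights each peak alike, differed by -0.00054 on the log2 scale (p = 0.667, exact permutation test, n = 2 each).

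Of the 6 named peaks higher in KO, 2 lay inside a second gene with a role at the TCR, and none passed the adjusted threshold (adjusted p = 1.00 in DESeq2 for each). The peak in Tg, which encodes thyroglobulin, lay within Sla, the Src-like adaptor that dampens TCR signalling, in section 3 of Tg. It had 417 and 463 normalized counts in Ctrl, then 598 and 727 in KO (log2 fold change 0.59, SE 0.21). The peak in 4930469K13Rik lay within Lcp2, which encodes the TCR adaptor SLP-76, and had 178 and 197 in Ctrl and 302 and 293 in KO (0.67, SE 0.25). Both peaks touched an exon, as did those in Ttc39b and Gm20388.

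The other 4 lay in section 4 of their host gene. Fancc, a DNA repair gene of the Fanconi anaemia pathway, had 33.8 and 17.9 in Ctrl and 77.2 and 57.9 in KO (log2 fold change 1.36, SE 0.51). Ttc39b had 34.5 and 31.7 against 84.4 and 66.4 (1.20, SE 0.45). Iqgap1, a scaffold of the actin cytoskeleton, had 61.1 and 74.4 against 121 and 136 (0.93, SE 0.35), and Ccdc88c, a regulator of Wnt and G protein signalling, 167 and 152 against 257 and 255 (0.68, SE 0.26). In each of the 6 the groups did not overlap, which the rule for naming them required.

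Of the 6 named peaks lower in KO, 4 lay in first introns by the transcript used here. That of Gm20388 is the first intron of the long model only, and its peak lay at 44.6% of that length, in section 2. The peak in the Gm20388 model lay within Slc7a5, which encodes the transporter LAT1 for large neutral amino acids, and had 411 and 514 normalized counts in Ctrl against 282 and 278 in KO (log2 fold change -0.72, SE 0.23; adjusted p = 1.00 in DESeq2 for each of the 6). Tex2 had 235 and 223 against 134 and 126 (-0.81, SE 0.28) at 6.02% of its length. Tox, an HMG-box transcription factor, had 47.4 and 52.4 against 16.04 and 18.7 (-1.54, SE 0.56). Spag9, the JNK scaffold JIP4, had 51.8 and 64.8 against 22.6 and 20.4 (-1.42, SE 0.52).

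The remaining 2 lay further along. The peak in Tbck, in section 3, had 38.1 and 57.9 against 14.9 and 11.9 (-1.80, SE 0.61). The peak in Snd1, in section 4, had 26.6 and 53.7 against 8.91 and 11.9 (-1.97, SE 0.69). Low peaks such as these rested on few reads in KO 2, which had 7 in each.

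**Figure D3:**
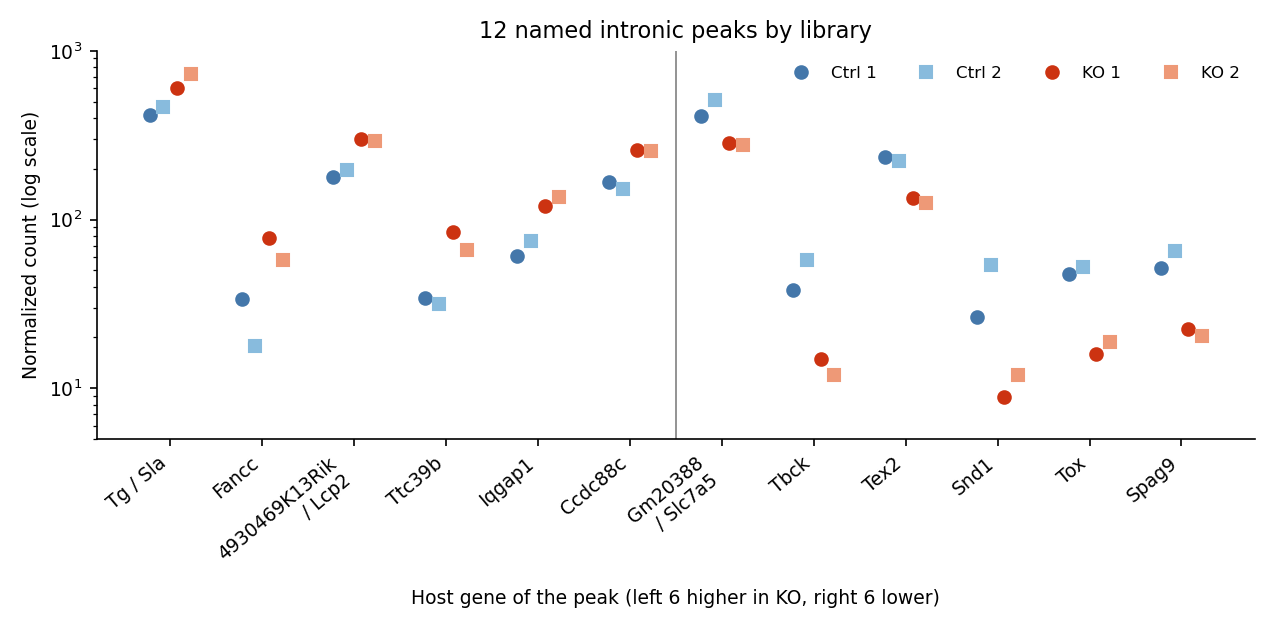
Normalized count (log axis) of the 12 named intronic peaks in each library, the 6 higher in KO on the left and the 6 lower on the right; a second gene name marks a peak that also lies in that gene. The Ctrl and KO points do not overlap in any of them, as the naming rule required.

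Counts of members were also summed per host gene, which gives more reads to each test, and fitted together with all other peaks. DESeq2 called none of the 887 host genes (lowest adjusted p = 1.00) and 0% of the whole table. At an unadjusted p under 0.05, 14 of the 887 were higher and 12 lower, against 440 (0.894%) and 335 (0.681%) of the 49222 rows of the whole table. Most of those rows are single peaks, so the comparison is with unlike rows. edgeR called 3 host genes, Snd1, Spag9 and Ubr4, all lower in KO, where it called 0.063% of the whole table. At an unadjusted p under 0.05 it had 53 of the 887, against 1883 of the 49222 rows (3.83%). No label pairs the libraries by their number, so a block on that number is an assumption. With the replicate number as a block, DESeq2 called 5 host genes (0.564%, against 0.0914% of the whole table). These were Snd1 (adjusted p = 0.00882), Spag9 (0.000324), Ubr4 (0.00123) and Mpp7 (0.0299), all lower in KO, and Tg (0.00940), higher. The same block called 1 member peak, in Snd1, where 0.0442% of all peaks were called. At the unadjusted threshold it had 28 members higher (0.338%, against 0.698% of all peaks) and 56 lower (0.676%). For lower, the share of all peaks with the block is not given, so higher and lower are not compared. In the fit without the block 56 were lower too, against 0.664% of all peaks in that fit. The median log2 fold change over host genes was 0.00, with 448 higher and 439 lower.

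Among the genes richest in members, the groups differed by little. Prkch summed to 17697 and 17001 normalized counts in Ctrl against 17153 and 17331 in KO (log2 fold change -0.01, SE 0.15). Dock2 had 14234 and 14401 against 13577 and 13707 (-0.07, SE 0.15), and Fyn 10118 and 10601 against 10870 and 11052 (0.08, SE 0.16). The Dock2 and Fyn groups did not overlap, in opposite directions, and both differences were smaller than their standard error.

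Prex1, a Rac exchange factor, had 10589 and 11074 against 10797 and 10934, and Ikzf2, which encodes the Treg transcription factor Helios, 10479 and 8425 against 10286 and 8456. Helios counts followed the library number rather than the genotype. Inpp4b had 6919 and 6764 against 5890 and 5772 (log2 fold change -0.23, SE 0.16), and Foxp1 5845 and 6319 against 6641 and 6869 (0.15, SE 0.16), neither of them past the unadjusted threshold of DESeq2. Akap13 had 9715 and 8084 against 8255 and 7347, and Gm20388 20558 and 22878 against 20294 and 21560, and the groups overlapped in both.

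The 5 host genes named as lower in KO were Ubr4, Spag9, Tbck, Mpp7 and Drosha. They were named on the sums of their own members, so a shared direction of those members is no separate support. Ubr4, a large E3 ubiquitin ligase, had 666 and 773 in Ctrl and 384 and 470 in KO over 9 members (log2 fold change -0.76, SE 0.21; adjusted p = 1.00 in DESeq2 and 0.0276 in edgeR). Its 9 peaks all had a fold change below 0, and 3 of them passed the unadjusted threshold. Its promoter peaks had 262 and 295 against 172 and 169. Spag9 had 863 and 688 against 520 and 368 over 10 members (-0.79, SE 0.23; adjusted p = 1.00 in DESeq2 and 0.0123 in edgeR), again with every peak below 0. Its 10 members all lay in the first 26.2% of the gene.

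Mpp7, a scaffold of cell junctions, had 710 and 477 against 432 and 320 over 6 members (log2 fold change -0.65, SE 0.25), with promoter peaks at 846 and 624 against 507 and 393. Drosha, the nuclease that starts microRNA maturation, had 102 and 192 against 70.7 and 78.3 over 2 members (-0.97, SE 0.38), and Tbck 46.0 and 96.4 against 22.6 and 29.0, also over 2. These had adjusted p = 1.00 in DESeq2 without a block and at least 0.201 in edgeR. In Drosha and Tbck the Ctrl libraries stood further apart than the means of the groups.

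Snd1, a Tudor-domain nuclease bound to RNA, was outside the naming rule for host genes and was chosen after its values were seen, because edgeR called it. Its 10 members all lay between 86.9% and 98.9% of its length, and summed to 1016 and 2130 in Ctrl and 196 and 795 in KO (log2 fold change -1.67, SE 1.01). Both KO libraries were below both Ctrl libraries, but libraries of the same group also stood far apart. Its promoter peaks had 371 and 433 against 367 and 445. The peak at 97.3% of the gene had 546 and 1145 normalized counts in Ctrl against 39.2 and 317 in KO, and the one at 98.8% had 190 and 448 in Ctrl and 1.19 (2 reads) and 150 in KO. These were the 2 members that edgeR called (adjusted p = 2.5e-29 and 3.1e-16), and DESeq2 gave unadjusted p-values of 0.090 and 0.34 for them in its fit across all peaks.

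**Figure D4:**
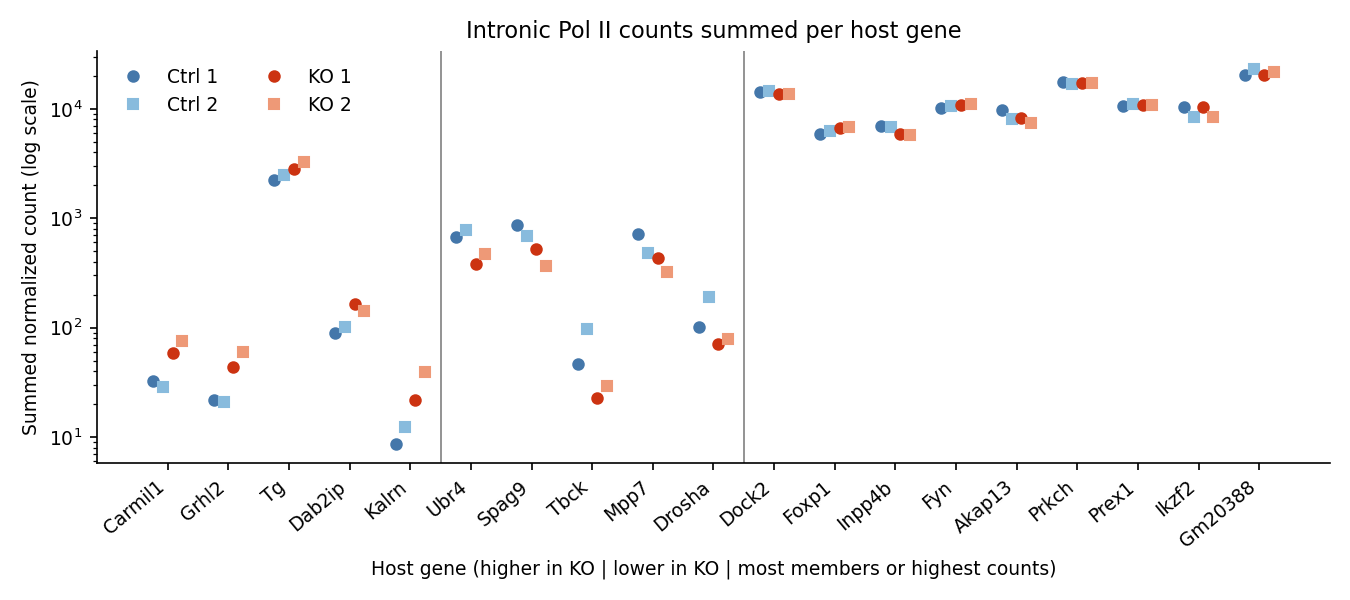
Summed normalized count of member peaks per host gene (log axis) in each library, for the 5 genes named as higher in KO, the 5 named as lower, and the 9 with the most members or the highest counts. Ctrl and KO points overlap in Prkch, Prex1, Ikzf2, Akap13 and Gm20388, and within-group gaps are wide in Ikzf2 and Akap13 despite their many members.

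The 5 host genes named as higher in KO were Carmil1, Grhl2, Tg, Dab2ip and Kalrn. These too were named on the sums of their own members, so a shared direction of those members is no separate support. Tg rested on 27 members, 7 of them in a second protein-coding gene, and had 2211 and 2464 in Ctrl and 2838 and 3268 in KO (log2 fold change 0.38, SE 0.17; adjusted p = 1.00 in DESeq2, 0.746 in edgeR and 0.00940 in DESeq2 with the block). Each of its 27 members had a fold change above 0, and 3 passed the unadjusted threshold. The promoter peaks of Tg had 1360 and 1109 against 1692 and 1422. Carmil1, a regulator of actin capping, had 32.3 and 28.9 against 58.8 and 74.9, and Grhl2, an epithelial transcription factor, 21.6 and 20.7 against 43.4 and 59.6, each from 1 member. Dab2ip, a Ras GTPase activating protein, had 89.1 and 102 against 164 and 141 from 3 members, and Kalrn 8.63 and 12.4 against 22.0 and 39.2 from 1. None of these 4 had a promoter peak.

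**Figure D5:**
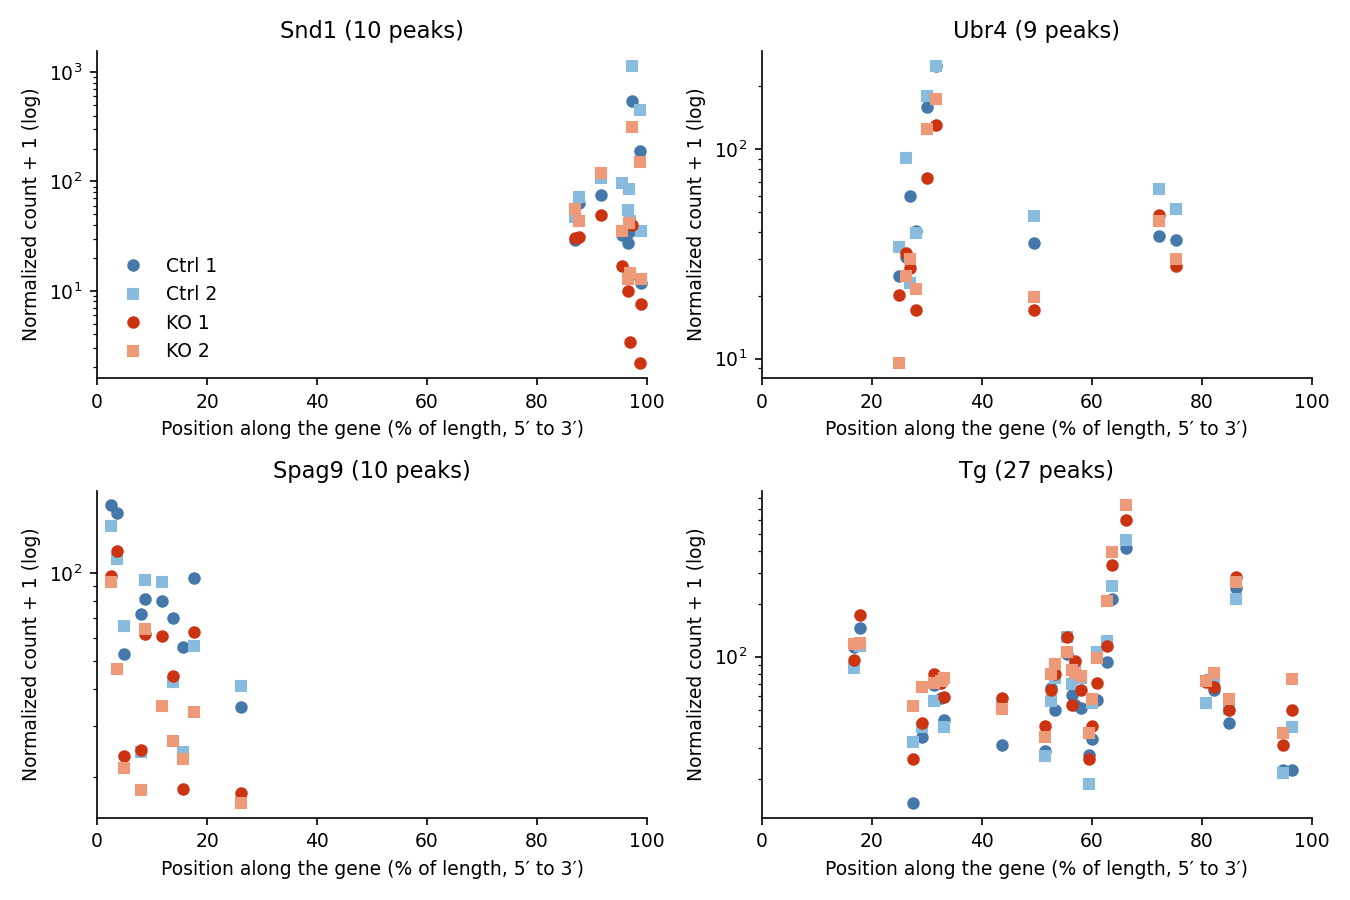
Normalized count + 1 (log axis) of each member peak of Snd1, Ubr4, Spag9 and Tg against its position as percent of gene length, by library. In Snd1 the peaks crowd at the 3′ end and KO 1 is the lowest in the 2 strongest peaks, in Ubr4 and Spag9 the KO points lie mostly below Ctrl, and in Tg the strongest peaks, at 63.7% and 66.2% of the gene, are higher in KO.

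Within each gene, members beyond the middle of its length (late) were compared with those before it (early) in the 420 host genes with members in both, by the position by genotype term of a DESeq2 fit. None was called (lowest adjusted p = 0.997), and 4 passed an unadjusted p under 0.05 (0.952%). edgeR called 0 and had 10 at the unadjusted threshold. The term was above 0, towards late members in KO, in 236 genes and below 0 in 184, with a median of 0.04 on the log2 scale.

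The genes with the lowest p-values mostly rested on 1 early peak. Rora, which encodes a nuclear receptor, had a term of -0.85 (SE 0.33). Its single early peak had 31.6 and 35.8 normalized counts in Ctrl against 45.2 and 68.1 in KO, while its 29 late peaks summed to 2944 and 2976 against 2470 and 2897. Ablim1, an actin-binding LIM protein, had -1.09 (SE 0.43), with 18.7 and 22.0 against 25.0 and 68.1 in its single early peak.

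Ctif, a translation factor, had -0.63 (SE 0.30) with 3 early and 10 late members. Rapgef6, an exchange factor for Rap, had a positive term of 0.47 (SE 0.25), with 16 early members that summed to 1549 and 1348 in Ctrl against 1322 and 1018 in KO and 8 late members at 452 and 394 against 524 and 424. The autophagy gene Atg7 (0.75, SE 0.39) and the lipid phosphatase Mtmr3 (0.72, SE 0.39) each had 1 early member. None of these 3 positive terms passed the unadjusted threshold.

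Lists of genes were described by their host genes. Of 54 listed genes of TCR signalling, 29 were hosts, with 741 members, and 13 were higher and 16 lower, with a median log2 fold change of -0.01 against 0.00 over all hosts. None of the 29 passed the unadjusted threshold of the fit on sums. The tally turned to 16 higher and 13 lower when libraries were thinned (median 0.01) and without Ctrl 1 (0.03), and to 15 and 14 with total-count scaling (0.02). In this list Prkch, Fyn and Nfatc1, the calcium-regulated NFAT factor, had the highest counts, and Nfatc1 had 6598 and 7195 in Ctrl against 7200 and 7610 in KO. T cell transcription factors had 24 hosts, 9 higher and 15 lower, with a median of -0.03. It turned to 16 and 8 without Ctrl 1 (median 0.10), and to 14 and 10 both without KO 2 (0.03) and with total-count scaling (0.00), was 12 and 12 when thinned, and was 9 and 15 with a median of -0.12 without Ctrl 2. In this list the hosts of highest count were Ikzf2, Bach2 and Smad3, and Tox2, chosen after its values were seen, passed the unadjusted threshold, with 478 and 444 against 537 and 724 (log2 fold change 0.44, SE 0.22).

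Genes of migration and the cytoskeleton had 27 hosts, led in count by Dock2, Fnbp1 and Dock8, with 12 higher, 15 lower and a median of -0.02, and with total-count scaling 16 higher, 11 lower and a median of 0.00. Genes of H3K36 methylation and chromatin had 20 hosts, led by Chd7, Chd2 and Kdm2b, with 7 higher, 13 lower and a median of -0.07. These values became 11, 9 and 0.01 without KO 1, and 6, 14 and -0.15 without KO 2. Elongation and RNA processing had 12, led by Mbnl1, Celf2 and Thada, with 6 higher, 6 lower and a median of 0.00, and ranged from 5 and 7 without KO 1 (-0.02) to 8 and 4 without KO 2 (0.04). No host in these 3 lists passed the unadjusted threshold, where 14 and 12 of all 887 did.

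Lists of genes whose mRNA was higher or lower in KO Treg cells from large intestine or spleen gave less even counts than all hosts did, described here without a test. They were taken as names only from the supplement of the study, whose mRNA libraries are other samples. The methods of the study name no IL-2c for those mRNA libraries, whereas the Pol II libraries are all of spleen after IL-2c. A relation of this kind was already known over the peaks of the Pol II libraries. Of hosts with higher mRNA in the large intestine, 44 of 59 (74.6%) had a log2 fold change of intronic Pol II above 0 and the median was 0.11. Of hosts with higher mRNA in the spleen, it was 60 of 78 (76.9%) and 0.11, where 50.5% of all hosts were above 0. Of hosts with lower mRNA, 22 of 30 in the large intestine and 43 of 65 in the spleen were below 0, with medians of -0.11 and -0.05. The 2 lists of higher mRNA shared 15 host genes by name, 25.9% of the 58 names of the one and 19.2% of the other, and the 2 of lower mRNA shared 8 (26.7% and 12.3%).

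The hosts of highest count often had a fold change against the direction of their list, and none passed the unadjusted threshold. Of the 6 in the lists of higher mRNA, 4 were below 0, Prkcq (log2 fold change -0.12), Elf1 (-0.08), Cmip (-0.05) and Smad3 (-0.14), while Ankrd44 (0.05) and Nfatc1 (0.10) were above. Prkcq, protein kinase C theta of the TCR pathway, had 6321 and 6283 in Ctrl and 5865 and 5740 in KO. Smad3, the mediator of TGF-β signalling, had 7813 and 7070 against 6816 and 6651. Of the 6 in the lists of lower mRNA, Vgll4 (0.07) and Tnrc6b (0.14) were above 0, and Mgat5 (-0.14), Msi2 (-0.001), Bach2 (-0.03) and Inpp4b (-0.23) below.

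Host genes of these lists past the unadjusted threshold were chosen after their values were seen. Of the 78 hosts with higher mRNA in the spleen, 4 were higher and 0 lower at this threshold, E130308A19Rik, Gng12, Nav2 and Tox2. Of the 59 with higher mRNA in the large intestine, 2 were higher and 0 lower, Gng12 and Tg. Over all 887 hosts, 14 were higher and 12 lower, and the lists were not tested against them. Nav2, a neuron navigator gene, had 1342 and 1576 in Ctrl and 1590 and 2311 in KO over 26 members. Gng12, a G protein subunit, had 12.2 and 5.51 against 22.6 and 35.8 from 1 member. The hosts with lower mRNA had 0 higher and 2 lower in each tissue. These were Mpp7 and Ubr4 of the 30 in the large intestine, and Atp2b1 and Ubr4 of the 65 in the spleen. Atp2b1, a calcium pump of the plasma membrane, had 883 and 987 against 662 and 727 over 16 members.

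These directions were kept in most but not all fits that left out a library. In the hosts with higher mRNA, 37 to 43 of 59 and 55 to 58 of 78 were above 0. In the hosts with lower mRNA in the spleen, 33 of 65 were below 0 without Ctrl 2 and 32 of 65 without KO 1, with medians of -0.01 and 0.00, against 48 of 65 and -0.19 without KO 2 and 45 of 65 and -0.13 without Ctrl 1. All hosts moved too, with 44.1% above 0 without KO 2 and 55.7% without KO 1.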

How the data were processed

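Pol II CUT&Tag counts were analysed from 2 Ctrl and 2 KO libraries. The authors aligned paired reads to mm10 with Bowtie2, kept unique reads without duplicates, called peaks against IgG with MACS2, merged them with bedtools and deposited raw counts per merged peak. FastQC was also named, and versions are not given in the sources used here. All count columns were mapped to samples, and replicate numbers were those of the labels.

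Peaks were placed on GENCODE vM21 (GRCm38) by their midpoint. KO was compared with Ctrl with DESeq2 1.42.0 (R 4.3.3) on all 56615 peaks without a filter on low counts, since the study used that tool. It was run again with members summed per host gene, where a peak in several host genes counted in each, and with a position by genotype term per gene (members before or beyond its middle). P-values were adjusted by Benjamini-Hochberg over each whole table at a threshold of 0.05. Normalized counts are deposited counts divided by DESeq2 size factors. Shares of counts were compared by exact two-sided permutation tests over libraries, and intervals are 95% Wilson intervals. edgeR 4.0.16 with TMM factors, other scalings, a minimum mean count of 10, a replicate block, thinning, narrower rules and leaving out each library were alternatives. The scripts were tested on simulated data. Python 3.11.15 was used.

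The named peaks had a mean normalized count of at least 20 and groups that did not overlap, and were the 6 higher and 6 lower with the lowest p, 1 for each host gene. Host genes were the 5 and 5 chosen likewise, the 6 with most members and the 6 with the highest sum. For that term, the 3 and 3 genes of lowest p with a mean of at least 20 on each side were named, and for lists the 3 genes of highest count. Members and lists were chosen with earlier results of these data known. Only gene names were taken from the study's mRNA tables. The sequence of 1 of the 4 peaks chosen for printing is not reported here.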

Additional observations from a re-analysis of the deposited data

How the results depend on the processing

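The fits with 2 libraries a group rest on little replication, and calls moved with the tool. edgeR called 2 members (0.0242%, against 0.0477% of all peaks) and 3 host genes (0.338%, against 0.063% of the whole table). It had 113 members higher and 130 lower at an unadjusted p under 0.05, which 3.63% of all peaks passed. The shared numbers do not pair the libraries by any label, and deviations of same-numbered libraries from their group correlated at 0.17 over members and 0.23 over all peaks, with only 2 pairs. With a replicate block, DESeq2 called 1 member (0.0121%, against 0.0442% of all peaks) and 5 host genes (0.564%, against 0.0914% of the whole table). At the unadjusted threshold it had 28 members higher (0.338%, against 0.698% of all peaks) and 56 lower (0.676%, the share of all peaks not given). Thinning to the smallest total left 34 members higher (0.411%) and 40 lower (0.483%). Shares over all peaks are not given for that fit or for the fits that left out a library. Whether the member counts of these fits differ from what all peaks do was therefore not tested. When 1 library was left out, the lone library of its group being assumed to vary like the others, members called ranged from 0 (without Ctrl 1) to 2 (without KO 2), members higher from 4 to 26 and lower from 4 to 68, and no host gene or balance was called. The same fits gave -1.45 to -0.425 points for section 1, -0.167 to 0.156 for section 2, 0.0144 to 0.152 for section 3 and 0.180 to 1.54 for section 4, 0.0315 to 0.154 for the log2 ratio of section 4 to section 1, -0.114 to 0.391 points for the member share, -0.0758 to 0.127 for the log2 ratio to promoters, and -0.0225 to 0.0250 for the median shift. Section 2 reversed to 0.255 in host genes of at least 200 kb, 0.0998 in members inside 1 protein-coding gene, 0.0890 without Gm20388 and 0.00886 without the top 1% of members. Section 3 reversed to -0.260 in host genes of at least 200 kb and -0.0529 in members over 10 kb from start sites. The median shift became 0.00505 when thinned, 0.0119 over 10 kb from start sites, 0.000857 without Gm20388 and 6.2e-05 without the top 1%. The log2 fold changes of 4 host genes near 0 also reversed. With total-count scaling, Prkch was 0.0204 and Ikzf2 0.0177, and with thinning 0.00316 and 0.00476. With 1 library left out, Prkch ranged from -0.0377 to 0.0271, Prex1 from -0.0206 to 0.0371, Ikzf2 from -0.163 to 0.161 and Gm20388 from -0.122 to 0.0254. The cause of these changes was not tested. The exclusion of Gm20388, the groups by GC, the split by promoter peak and the members touching no exon were chosen after seeing the data.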
